A study of Mus musculus with 8 samples.

Results

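Liver RNA from 8 male C57BL/6 wild-type mice was examined for the 10 genes that encode the subunits of the NF-κB transcription factor and a set of proteins that regulate it, most of them inhibitors. The genes were the 5 subunits *Nfkb1*, *Nfkb2*, *Rela*, *Relb* and *Rel*, the IκB proteins *Nfkbia*, *Nfkbib* and *Nfkbie*, the IκB kinase relative *Ikbke*, and the deubiquitinating and ubiquitin ligase enzyme *Tnfaip3* (A20). Members were found by the gene name that the array design gives each probe, which selected 14 of 41174 non-control probes and 10 of the 16558 named genes that had a detected probe. Of the mice, 4 were administered standard chow (STD diet) and 4 the atherogenic diet (ATH, called high-fat/high-cholesterol in the labels), a diet rich in fat and cholesterol that also contains cholic acid, for 4 weeks. All mice were 14 to 17 weeks of age when the experiment started, no transgene or drug was involved, and each array held the RNA of 1 mouse. The diet is used as a model of fatty liver disease with hepatic inflammation, and the comparison addressed here is which parts of the NF-κB system differed in liver mRNA between the diets.

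NF-κB proteins act as dimers. In a resting cell the dimers are held in the cytoplasm by IκB proteins, and signals from receptors for tumor necrosis factor, interleukin-1 or microbial products lead to phosphorylation and breakdown of the IκB, after which dimers such as p50 with RelA enter the nucleus (the canonical pathway). A slower non-canonical pathway, started by a smaller group of receptors, runs through the kinase NIK and the processing of the p100 protein, which frees p52 with RelB. Several genes of the system are themselves NF-κB targets, among them *Nfkbia*, *Nfkbie*, *Tnfaip3*, *Nfkb2* and *Relb*, and the IκB proteins and A20 among them shut the signal down again. In liver the pathway operates in hepatocytes and in Kupffer cells, the resident macrophages, as well as in other cells.

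Transcripts of *Tnfaip3* and *Relb* were higher in mice administered the atherogenic diet, by 6.09-fold and 4.84-fold respectively, and in both genes all 4 ATH arrays lay above all 4 STD arrays. *Tnfaip3* passed a false discovery rate of 1% and *Relb* passed 5% (limma, adjusted over 31056 detected probes). None of the other 8 members passed 5% by its brightest probe, although 7 of them had a higher mean on the atherogenic diet, with log2 differences from 0.14 for *Nfkbib* to 1.18 for *Nfkbie*. *Rel* was the 1 member with a lower mean, at a log2 difference of -0.12.

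At 5%, 2 of the 10 members were called higher, where 4.05% of all genes tested were, and at 1% it was 1 member, where 0.26% of all genes were. Of the 10 members, 3 (*Rela*, *Relb* and *Tnfaip3*) had no overlap between the diets with the ATH arrays on top, compared to 7.6% of all genes. The median log2 difference over the members was 0.73, beside -0.14 over all 16558 genes, of which 34.9% had a higher mean on the atherogenic diet. Because the 10 genes were chosen with earlier results of these data known, these figures describe the members and are not a test of the group. All STD arrays were on 1 slide and all ATH arrays on another, and the effects of slide and of diet cannot be told apart in any difference given here. In whole liver, a change in the number of cells that hold a transcript and a change in the amount per cell also cannot be told apart.

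**Figure D1:**
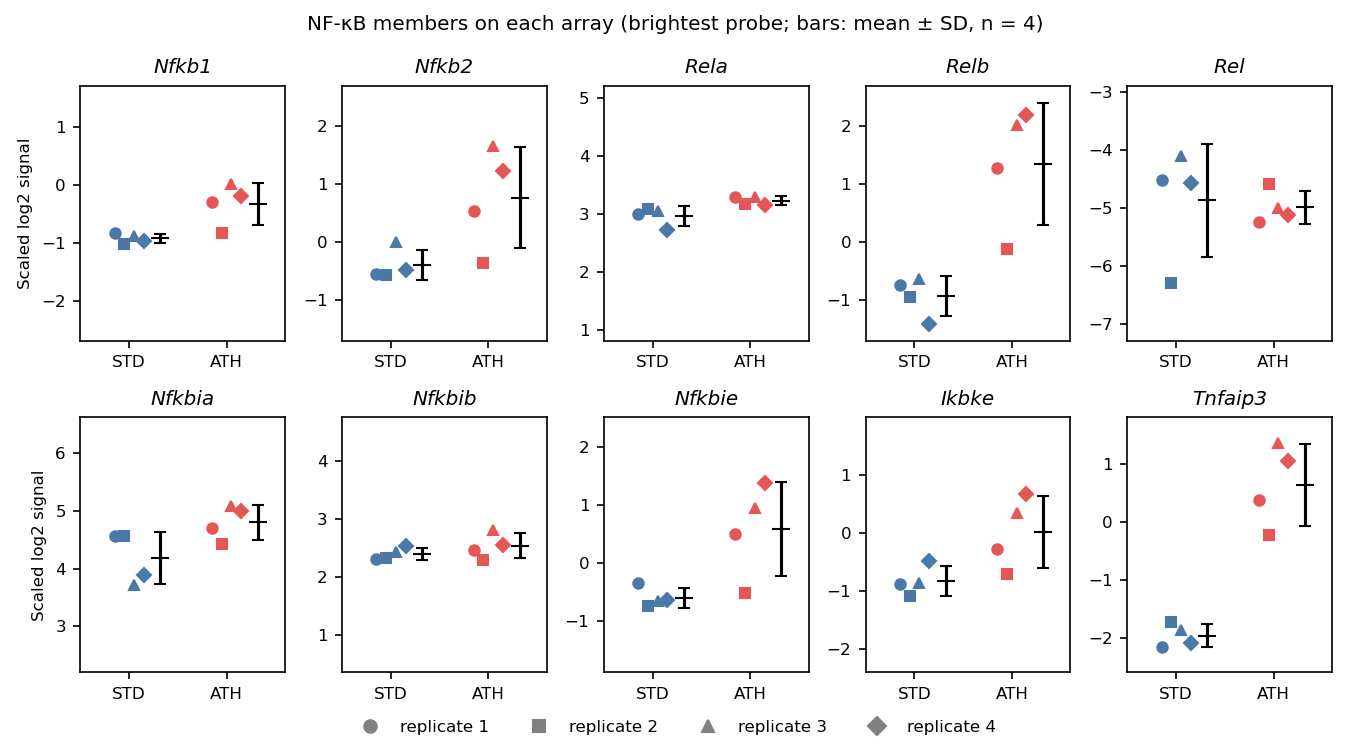
Scaled log2 signal (log2 signal minus the array's 75th percentile) of the brightest probe of each member on the 4 STD and 4 ATH arrays, with a marker shape for each replicate number and the mean ± SD (n = 4) to the right of the points. Each panel spans the same number of log2 units, and the gap between the diets is widest for *Tnfaip3* and *Relb*, where no ATH array falls among the STD arrays.

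The values are scaled log2 signals: the log2 spot intensity minus that of the array's 75th percentile, so that 0 is the brightness of the probe at that percentile. Detection required a signal that was well above background, positive and significant, without an outlier mark, on 3 or more of the 4 arrays of a diet. All 14 member probes were detected and none was saturated, so no member was lost to the filter. Signals of different probes depend on how each probe hybridizes, so the levels of different genes are not compared with each other. The arrays were similar in the share of spots well above background, 72.3% to 77.8%, but not in brightness. Before scaling, the 75th percentile (log2) was 8.81 to 8.91 on the STD arrays and 9.11 to 9.46 on the ATH arrays. The median of the spike-in controls was 10.19 to 10.28 on the STD arrays and 10.30 to 10.40 on the ATH arrays. Every ATH array was thus brighter than every STD array before scaling, and the cause was not tested.

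Each probe is a 60-base stretch of the transcript, and 3 of the members were read by probes that cross from one exon into the next, since the array design maps the 60 bases to a longer stretch of the genome (mm7 build). The *Nfkb2* probe covers chromosome 19 from 46208290 to 46208429 (plus strand), the *Nfkbia* probe chromosome 12 from 53415998 to 53416493 (minus strand) and the *Nfkbib* probe chromosome 7 from 25693284 to 25693965 (minus strand). Their sequences are shown because a junction probe matches spliced mRNA and not a continuous stretch of the gene.

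Nfkb2 probe: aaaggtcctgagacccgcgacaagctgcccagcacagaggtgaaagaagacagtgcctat
Nfkbia probe: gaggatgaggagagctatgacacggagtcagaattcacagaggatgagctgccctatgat
Nfkbib probe: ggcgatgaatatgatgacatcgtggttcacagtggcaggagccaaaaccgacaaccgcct

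Among the subunits, *Relb*, which encodes the RelB partner of p52 in the non-canonical pathway, had scaled log2 signals of -0.74, -0.95, -0.64 and -1.41 on STD arrays 1 to 4 and 1.28, -0.12, 2.02 and 2.19 on ATH arrays 1 to 4. The ATH arrays were all above the STD arrays, but ATH array 2 lay far below the other 3 ATH arrays and much nearer to the STD arrays. The log2 difference was 2.28 (SE 0.47, 95% interval 1.22 to 3.33, n = 4 per diet, adjusted p = 0.0287). Its probe lies at chromosome 7, 17288747 to 17288806 (mm7, minus strand). With the position on the slide as a block, which pairs ATH array 1 with STD array 1 and so on, the adjusted p was 0.0521. The call rested on few arrays: leaving out any 1 array other than ATH array 2 gave adjusted p from 0.0503 to 0.0745, and leaving out ATH array 2 gave 0.00227.

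*Nfkb2*, which encodes p100 and its product p52, did not pass 5%. It measured -0.55, -0.57, -0.0032 and -0.48 on the STD arrays and 0.53, -0.35, 1.65 and 1.23 on the ATH arrays, by the exon-crossing probe printed above. ATH array 2 fell among the STD arrays while the other 3 ATH arrays were above all of them. The log2 difference was 1.16 (SE 0.39, 95% interval 0.28 to 2.04, adjusted p = 0.0932), and without ATH array 2 it was 1.54 (adjusted p = 0.0122). With any other 1 array left out the adjusted p was from 0.118 to 0.215.

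*Nfkb1*, which encodes p105 and its product p50, was read by 4 probes on chromosome 3, and all 4 had a higher mean on the atherogenic diet. The brightest, present as 10 spots per array, measured -0.82, -1.01, -0.88 and -0.97 on the STD arrays and -0.30, -0.82, 0.016 and -0.19 on the ATH arrays. The STD arrays were tightly grouped (SD 0.085) and ATH array 2 was level with the highest of them. This probe differed by 0.60 on the log2 scale (SE 0.18, 95% interval 0.19 to 1.01, adjusted p = 0.0740).

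The brightest probe lies at 135379090 to 135379151 (mm7, minus strand) and the others between 135405555 and 135412634. These others gave log2 differences of 0.76 (adjusted p = 0.109), 0.65 (adjusted p = 0.118) and 0.82 (adjusted p = 0.0325). The last of these, A_52_P32733, was the 1 *Nfkb1* probe that passed 5%, where 3.06% of all probes were called higher. It was dim, at -3.73, -3.65, -4.0004 and -4.07 on the STD arrays and -3.39, -3.17, -2.82 and -2.77 on the ATH arrays, with no overlap. With the slide position as a block its adjusted p was 0.0699. The 4 probes thus gave estimates between 0.60 and 0.82 and differed in whether they passed 5%.

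*Rela*, which encodes the p65 subunit of the canonical dimer, measured 3.003, 3.09, 3.05 and 2.72 on the STD arrays and 3.29, 3.17, 3.30 and 3.15 on the ATH arrays. All 4 ATH arrays were above all 4 STD arrays, by a narrow margin. Its log2 difference was 0.26 (SE 0.13, 95% interval -0.02 to 0.55, adjusted p = 0.208), so that a change above 0.55 lay outside the interval. The second *Rela* probe, present as 10 spots per array, gave 0.15 (SE 0.16, adjusted p = 0.571), and its diets overlapped.

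*Rel*, which encodes the c-Rel subunit found mainly in lymphocytes and other blood cells, was close to the background in these livers. Its probe measured -4.52, -6.29, -4.10 and -4.57 on the STD arrays and -5.24, -4.59, -5.00 and -5.12 on the ATH arrays, and was detected on 3 STD and 4 ATH arrays. STD array 2 was the lowest of all, and the other 3 STD arrays were above all 4 ATH arrays. The log2 difference was -0.12 (SE 0.43, 95% interval -1.08 to 0.85, adjusted p = 0.876), an interval too wide to settle a direction. Its sign changed under other scalings, with 0.11 after quantile normalization, 0.19 after spike-in scaling and 0.33 with no scaling.

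*Tnfaip3* encodes A20, which edits the ubiquitin chains on signaling proteins upstream of the IκB kinases and so limits the response to tumor necrosis factor and Toll-like receptors. Its probe (chromosome 10, 18722874 to 18722933, mm7, minus strand) measured -2.14, -1.72, -1.86 and -2.09 on the STD arrays and 0.40, -0.22, 1.37 and 1.06 on the ATH arrays. The lowest ATH array was again array 2, and even this array was well above the highest STD array. The log2 difference of 2.61 (SE 0.32, 95% interval 1.89 to 3.32, adjusted p = 0.00664) was the largest among the members. It passed 5% with each of the 8 arrays left out in turn (adjusted p from 0.00162 to 0.0255). With the slide position as a block the adjusted p was 0.0323, past 5% and not 1%, a level that no gene passed in that fit. *Tnfaip3* was the 1 member called at 5% with the block, where 2.01% of all genes were called higher. By the test of the study's methods, which allows unequal variances, its adjusted p was 0.105. None of the members passed an adjusted 5% by that test, where 0.0181% of all genes were called higher. At an unadjusted p under 0.05 there were 4 members. The share of all genes for that unadjusted count is not given, and no result is read from it.

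*Nfkbia* encodes IκBα, the inhibitor that is broken down first and remade as an early NF-κB target. It measured 4.56, 4.57, 3.71 and 3.88 on the STD arrays and 4.71, 4.42, 5.09 and 4.99 on the ATH arrays. The STD arrays split into a pair near 4.6 and a pair below 3.9, and ATH array 2 was below the upper pair. The log2 difference was 0.62 (SE 0.24, 95% interval 0.07 to 1.17, adjusted p = 0.136) and did not pass 5%. *Nfkbib*, which encodes IκBβ, had STD values from 2.31 to 2.53 and ATH values from 2.30 to 2.82, with a log2 difference of 0.14 (SE 0.14, 95% interval -0.18 to 0.46, adjusted p = 0.535).

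*Nfkbie*, which encodes IκBε, had the third largest difference among the members. It measured -0.35, -0.74, -0.66 and -0.63 on the STD arrays and 0.50, -0.51, 0.96 and 1.38 on the ATH arrays. As with *Nfkb2*, ATH array 2 lay among the STD arrays and the other 3 above them. The log2 difference was 1.18 (SE 0.35, 95% interval 0.37 to 1.98, adjusted p = 0.0725), and it was 1.54 (adjusted p = 0.00586) without ATH array 2. With any other 1 array left out the adjusted p was from 0.106 to 0.161.

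*Ikbke* encodes IKKε, a kinase related to the IκB kinases that acts in interferon and NF-κB signaling. It measured -0.88, -1.10, -0.87 and -0.49 on the STD arrays and -0.28, -0.72, 0.35 and 0.67 on the ATH arrays. Again ATH array 2 overlapped the STD arrays. The log2 difference was 0.84 (SE 0.29, 95% interval 0.18 to 1.504, adjusted p = 0.104), or 1.08 (adjusted p = 0.0283) without ATH array 2. With any other 1 array left out the adjusted p was from 0.113 to 0.223.

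**Figure D2:**
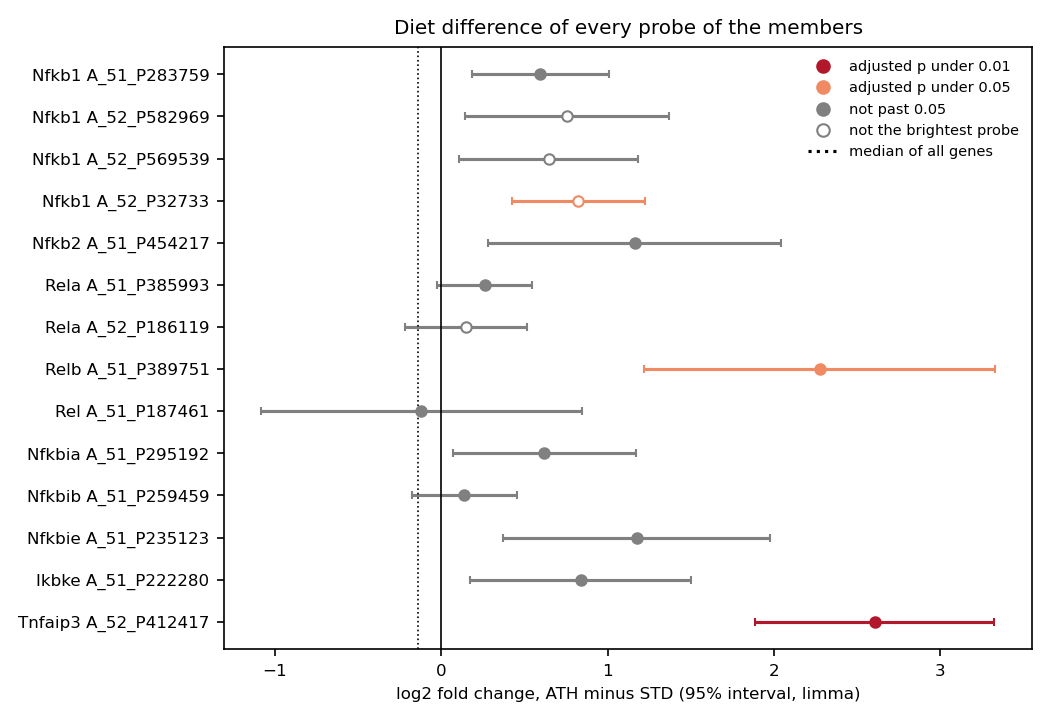
Log2 fold change (ATH minus STD) with its 95% interval for each of the 14 probes of the members, from the limma fit. Colors mark the adjusted p, open circles are probes other than the gene's brightest, and the dotted line is the median of all genes at -0.14. The *Tnfaip3* and *Relb* intervals lie wholly above 1, and the 4 *Nfkb1* probes overlap one another.

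ATH array 2 was the lowest of the ATH arrays for 8 of the 10 members. The same array was the lowest for 70.6% of the 670 genes called higher at 5%, and for 20.3% of all genes. Without it, 6 members passed 5% (*Nfkb1*, *Nfkb2*, *Relb*, *Nfkbie*, *Ikbke* and *Tnfaip3*), where 7.47% of all genes did. Without any 1 of the other 7 arrays only *Tnfaip3* passed. The share of all genes that did was then 0.616%, 1.33%, 0.604% and 0.791% without STD arrays 1 to 4, and 2.48%, 0.918% and 0.773% without ATH arrays 1, 3 and 4.

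Markers of macrophages moved in the same direction as these genes. All 12 genes of a macrophage list (among them *Adgre1*, *Cd68*, *Clec4f* and *Marco*) were detected and all had a higher mean in the ATH group. At 5%, 7 of the 12 were called higher, where 4.05% of all genes were. The median log2 difference of the list was 1.79, beside -0.14 over all genes. *Cd5l*, a protein secreted by macrophages, passed 1% with a log2 difference of 1.69 (SE 0.23, adjusted p = 0.00904). With the slide position as a block its adjusted p was 0.0368, past 5% and not 1%, a level that no gene passed in that fit. With the block 4 of the 12 markers passed 5%, where 2.01% of all genes were called higher. The summed signal of the list, as log2, ranged from 6.83 to 7.10 on the STD arrays and from 7.79 to 9.87 on the ATH arrays, of which array 2 was the lowest. None of the list's genes was undetected, and the part of these cells in the differences of *Tnfaip3*, *Relb* and the other members was not tested. The hepatocyte markers were present as the tissue label says, with 11 of 11 measured genes detected; 10 of them had a lower mean on the atherogenic diet, but only 4 did with no scaling or quantile normalization and 6 with spike-in scaling. *Tat*, *Tdo2* and *Hpd*, which break down amino acids, passed 5% (log2 differences of -1.05, -0.70 and -0.61), where 5.3% of all genes were called lower. With the slide position as a block *Tat* alone of these 3 passed (adjusted p = 0.0371, beside 0.0609 for *Tdo2* and 0.0533 for *Hpd*), as it did with no scaling, where *Tdo2* measured -0.25 and *Hpd* -0.17.

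The scaling between arrays set how many members were called. With no scaling 9 members passed 5%, all but *Rel*, while 25.9% of all genes were called higher, and the median of all genes moved from -0.14 to 0.31. Scaling by the spike-in controls gave 4 members (*Nfkb1*, *Rela*, *Relb* and *Tnfaip3*) against 9.95% of genes, and normexp background correction gave 6 (*Nfkb1*, *Nfkb2*, *Relb*, *Nfkbia*, *Nfkbie* and *Tnfaip3*) against 5.71%. Relative to the median of all genes, the members' median stood higher by 0.868 under the 75th percentile, median, spike-in and no scaling. These settings differ only by a constant for each array, so the equal gap was fixed by arithmetic and says nothing of stability. After normexp the gap was 0.870, and after quantile normalization it was 0.878. Quantile normalization gave 2 members against 4.25% of genes, and *Tnfaip3* and *Relb* passed 5% under all of these scalings.

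**Figure D3:**
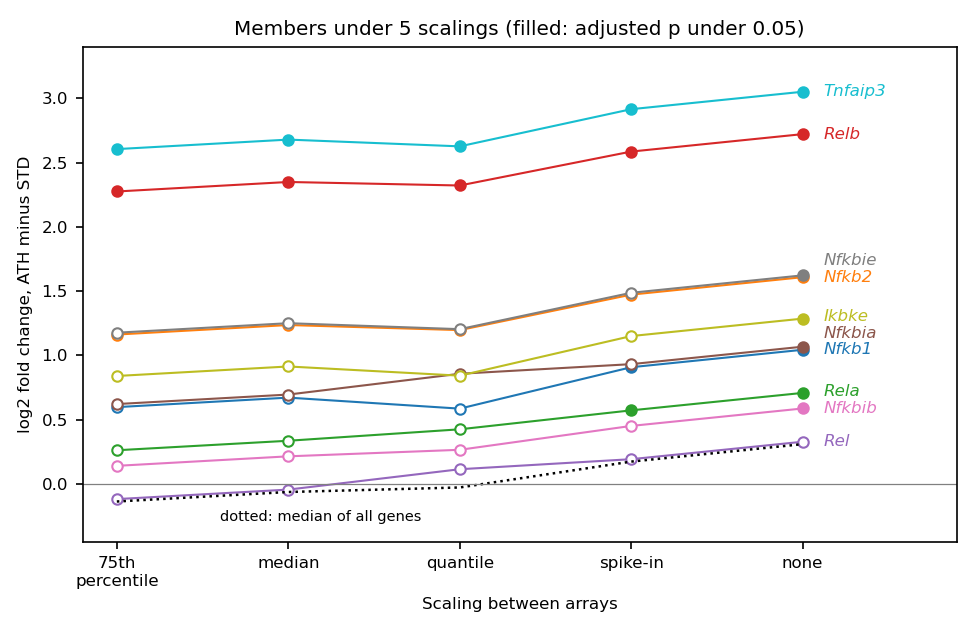
Log2 fold change (ATH minus STD) of each member's brightest probe under 5 ways of scaling the arrays, with filled circles where the adjusted p was under 0.05. The dotted line is the median of all genes, which moves from -0.14 to 0.31. Apart from quantile normalization, the scalings shift all genes alike, so there the members move with the line and keep their order by construction.

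Related members were then compared within each array, since a difference between 2 probes of an array does not depend on the scaling between arrays. The change with diet was compared in 6 pairs by an exact permutation test (two-sided, 70 assignments of the arrays, smallest possible p = 0.0286). The change in *Relb* exceeded that in *Rela* by 2.01 on the log2 scale (SE 0.53, exact p = 0.0286, 0.0857 adjusted over the 6 pairs). For *Tnfaip3* the change exceeded that in *Nfkbia* by 1.98 (SE 0.32, exact p = 0.0286, adjusted 0.0857). In both pairs all 4 ATH arrays were above all 4 STD arrays, which gives the smallest p of this design. Neither passed 5% after adjustment. With these 2 of the 6 pairs at the smallest p, 0.0857 was the lowest adjusted value they could have, so the adjusted test could not have called them.

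No other pair separated the diets. The change in *Nfkb2* was larger than that in *Nfkb1* by 0.56 (SE 0.30, exact p = 0.171, adjusted 0.257), and the change in *Nfkbie* larger than that in *Nfkbia* by 0.56 (SE 0.34, exact p = 0.171, adjusted 0.257). For *Nfkbib* the change was smaller than for *Nfkbia*, at -0.48 (SE 0.28, exact p = 0.229, adjusted 0.274). *Rel* differed from *Rela* by -0.38 (SE 0.54, exact p = 0.514, adjusted 0.514). These p-values do not show that the paired genes changed alike.

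**Figure D4:**
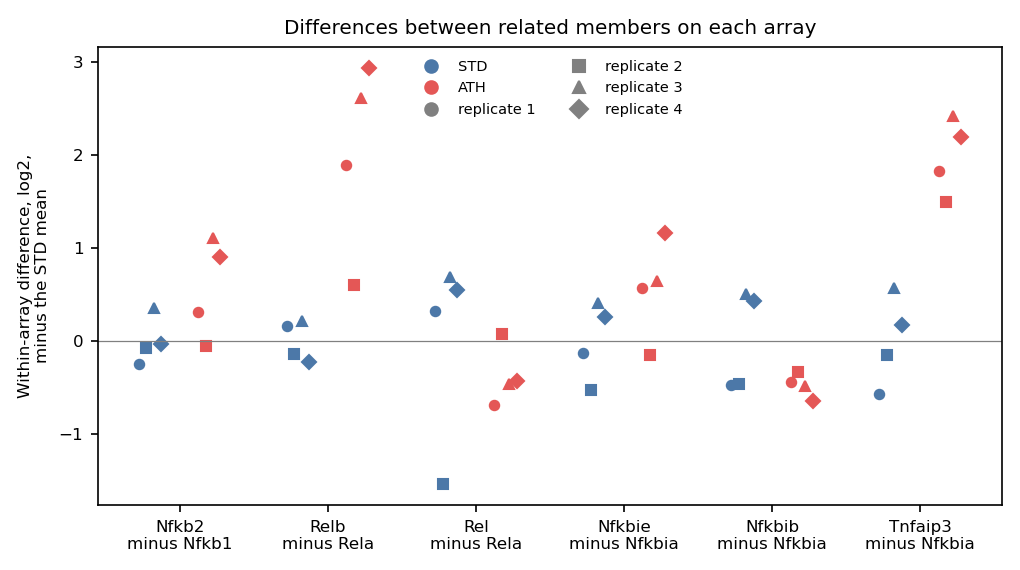
Within-array difference between 2 related members in scaled log2 signal, minus the mean of that difference over the STD arrays, for the 4 STD and 4 ATH arrays. For *Relb* minus *Rela* the ATH arrays lie from 0.60 to 2.94, and for *Tnfaip3* minus *Nfkbia* from 1.496 to 2.42, all above the STD arrays; in the other 4 pairs the diets overlap.

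Promoter sequences are shown for the member called at 1% (*Tnfaip3*), for 2 members known as NF-κB targets that did not pass 5% (*Nfkbia* and *Nfkb2*) and for *Rela*, so that the κB motifs near their start sites can be set beside the values above. Each is 300 bases from RefSeq (GRCm38.p6 build), 250 before and 50 after the annotated start, given in the direction of the gene. *Tnfaip3* is at chr10:19015361-19015660 (minus strand, the upstream of 2 starts in the table), *Nfkbia* at chr12:55492598-55492897 (minus strand), *Nfkb2* at chr19:46304487-46304786 (plus strand, the most upstream of 3 starts in the table) and *Rela* at chr19:5637291-5637590 (plus strand). Capitals mark matches, on either strand, to the κB consensus GGGNNNNNCC with a purine at base 4 and pyrimidines at bases 7 and 8; matches that overlap, such as the same letters read on both strands, are marked as 1 stretch.

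Tnfaip3: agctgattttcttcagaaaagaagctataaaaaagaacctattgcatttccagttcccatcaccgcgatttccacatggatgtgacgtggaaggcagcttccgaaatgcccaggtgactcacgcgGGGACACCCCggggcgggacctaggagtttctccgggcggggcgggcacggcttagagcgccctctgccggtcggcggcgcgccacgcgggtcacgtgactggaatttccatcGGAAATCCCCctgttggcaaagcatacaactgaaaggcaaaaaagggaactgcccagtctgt
Nfkbia: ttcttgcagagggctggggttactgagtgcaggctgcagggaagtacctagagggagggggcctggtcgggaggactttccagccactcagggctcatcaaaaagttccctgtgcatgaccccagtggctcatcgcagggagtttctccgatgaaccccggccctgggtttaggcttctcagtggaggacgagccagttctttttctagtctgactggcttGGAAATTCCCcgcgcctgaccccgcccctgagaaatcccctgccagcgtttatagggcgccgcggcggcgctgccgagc
Nfkb2: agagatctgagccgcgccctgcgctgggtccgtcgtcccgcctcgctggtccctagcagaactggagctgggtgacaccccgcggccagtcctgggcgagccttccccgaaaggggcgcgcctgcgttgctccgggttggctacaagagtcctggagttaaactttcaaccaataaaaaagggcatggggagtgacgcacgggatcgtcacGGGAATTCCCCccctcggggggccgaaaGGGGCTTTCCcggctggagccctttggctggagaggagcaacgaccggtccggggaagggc
Rela: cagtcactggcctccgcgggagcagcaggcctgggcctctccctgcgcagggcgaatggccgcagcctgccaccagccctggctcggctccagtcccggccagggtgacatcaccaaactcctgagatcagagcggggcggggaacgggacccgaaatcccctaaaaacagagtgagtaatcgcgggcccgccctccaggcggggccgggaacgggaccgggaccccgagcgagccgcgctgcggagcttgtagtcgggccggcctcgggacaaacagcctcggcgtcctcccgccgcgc

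*Tnfaip3* had a match 125 bases before the start (GGGACACCCC) and another 12 bases before it (GGAAATCCCC), while the window of its other start, at chr10:19011914-19012213, had none. *Nfkbia* had 1 match, 29 bases before the start (GGAAATTCCC). *Nfkb2* had matches 39 bases (GGGAATTCCCC) and 11 bases (GGGGCTTTCC) before this start, and *Rela* had none. Of the 8 members with a promoter in the table, 5 had at least 1 match (*Nfkb2*, *Rel*, *Nfkbia*, *Nfkbie* and *Tnfaip3*), compared to 11.6% of 13132 tested genes and 8.46% of all 32851 promoters. *Rela*, *Nfkbib* and *Ikbke* had no match in these windows. The 5 genes with a match included the member with the largest log2 difference (*Tnfaip3*, 2.61) and the member with the lowest (*Rel*, -0.12). A match describes the letters only and says nothing of binding in these livers.

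The genes that lie upstream in the pathway were taken from lists by role, chosen like the members with earlier results known. Over the ligands, receptors, adaptors, kinases and further inhibitors, 62 of 64 genes were detected, of which 8 were called higher and 1 lower at 5%. Among all genes, 4.05% were called higher and 5.3% lower at 5%. Without ATH array 2 the count called higher was 19, where 7.47% of all genes were, and without ATH array 1 it was 4, where 2.48% were. Without any other 1 array it was 0 or 1, where 0.604% to 1.33% of all genes were. The 9 called genes are given by role.

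Among the ligands 3 of 7 detected genes were called higher, with a list median of 1.14 (0.46 after normexp background correction). *Tnf*, the cytokine that activates the canonical pathway, measured -4.75, -4.66, -4.63 and -5.36 on the STD arrays and -1.73, -4.19, -0.59 and -0.24 on the ATH arrays. These STD signals were dim, within the range of those of *Rel*, which was close to the background. ATH array 2 was just above the STD arrays and far below the other ATH arrays. The log2 difference of *Tnf* was 3.16 (SE 0.75, adjusted p = 0.0413; 0.0649 with the slide position as a block). *Il1b*, which encodes interleukin-1β, rose by 2.55 (SE 0.56, adjusted p = 0.0343). *Tnfsf13b*, which encodes the B-cell factor BAFF, a ligand of the non-canonical pathway, rose by 1.14 (SE 0.26, adjusted p = 0.0388) by its brightest probe. This probe was dim on the STD arrays, from -3.94 to -3.42, and the second *Tnfsf13b* probe gave 0.03 (adjusted p = 0.941).

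Of 9 receptors 3 were called higher, with a median of 0.84 (0.47 after normexp). *Il1r1*, the interleukin-1 receptor, rose by 1.47 (SE 0.36, adjusted p = 0.0444), and *Tlr4*, the receptor for bacterial lipopolysaccharide, by 1.16 (SE 0.29, adjusted p = 0.0461). *Tnfrsf11a* (RANK), a receptor of the tumor necrosis factor family, rose by 1.37 (SE 0.25, adjusted p = 0.0219) by its brightest probe and measured 0.55 (adjusted p = 0.104) by its other probe. Signals on the STD arrays were dim for *Tlr4* (-3.86 to -3.47) and for the brightest *Tnfrsf11a* probe (-4.14 to -3.70). With the slide position as a block 1 receptor passed 5%, *Il1r1* (adjusted p = 0.0473).

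The 29 adaptors and kinases had a median of 0.07, beside -0.14 for all genes, and 2 were called higher. A higher mean on the atherogenic diet was found for 17 of them, and for 34.9% of all genes. *Map3k14*, which encodes NIK, the kinase of the non-canonical pathway, measured -1.17, -0.93, -0.70 and -0.79 on the STD arrays and -0.21, -0.36, 0.25 and 0.38 on the ATH arrays. Its diets did not overlap and it rose by 0.91 (SE 0.20, adjusted p = 0.0324). *Traf5*, an adaptor of tumor necrosis factor receptors, rose by 0.49 (SE 0.12, adjusted p = 0.0427; 0.0572 with the block).

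*Ikbkg*, which encodes NEMO, the regulatory subunit of the IκB kinase complex, was the 1 gene called lower, by -0.74 (SE 0.15, adjusted p = 0.0297). Of its 4 probes, 2 passed 5% (-0.74 and -0.84) and 2 did not (-0.35 and -0.37). With no scaling its difference was -0.30, and no adaptor or kinase was called lower. Among the 17 further inhibitors detected, such as *Cyld* and *Tnip1*, none passed 5% by limma in either direction (5 at an unadjusted p under 0.05) or by the methods' test (2 unadjusted). Their median was 0.08, or -0.03 after normexp, under which 1 of them was called higher. For the unadjusted counts the share of all genes is not given, and no result is read from them.

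Genes known as NF-κB targets had a median log2 difference of 1.40 (0.86 after normexp). Of the 27 listed, 23 were detected. At 5%, 8 of these were called higher and none lower, where 4.05% of all genes were called higher and 5.3% lower. At an unadjusted p under 0.05 there were 15 targets. None passed 1% by limma, or 5% by the methods' test (12 unadjusted). The share of all genes with an unadjusted p under 0.05 is not given beside the unadjusted counts, and no result is read from them. Without ATH array 2 the count called higher was 15, where 7.47% of all genes were called higher. Without any other 1 array it was 0 to 4, where 0.604% to 2.48% of all genes were. *Sele*, *Csf2*, *Ptgs2* and *Nos2* were not detected. The 5 with the lowest p were *Icam1*, *Cd83*, *Birc3*, *Ccl2* and *Il6*.

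*Icam1*, the endothelial and leukocyte adhesion molecule, measured 0.87, 0.74, 0.63 and 1.06 on the STD arrays and 2.86, 1.83, 3.21 and 3.53 on the ATH arrays, with no overlap. It rose by 2.03 (SE 0.33, adjusted p = 0.0160), and its second probe by 1.94 (adjusted p = 0.0310). *Ccl2*, the monocyte chemoattractant MCP-1, rose by 3.37 (SE 0.67, adjusted p = 0.0263). For *Cd83*, a surface protein of activated antigen-presenting cells, the rise was 2.35 (SE 0.41, adjusted p = 0.0191).

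*Birc3*, an inhibitor of cell death and a ubiquitin ligase of the pathway, rose by 0.81 (SE 0.16, adjusted p = 0.0252) by its brightest probe and measured 0.39 (adjusted p = 0.269) by the other. *Il6* rose by 1.24 (SE 0.26, adjusted p = 0.0314) at a dim signal, from -5.06 to -3.78 on the STD arrays and from -3.56 to -3.08 on the ATH arrays. Of these 5 targets, 4 passed 5% with the slide position as a block, and *Birc3* did not (adjusted p = 0.0558).

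**Figure D5:**
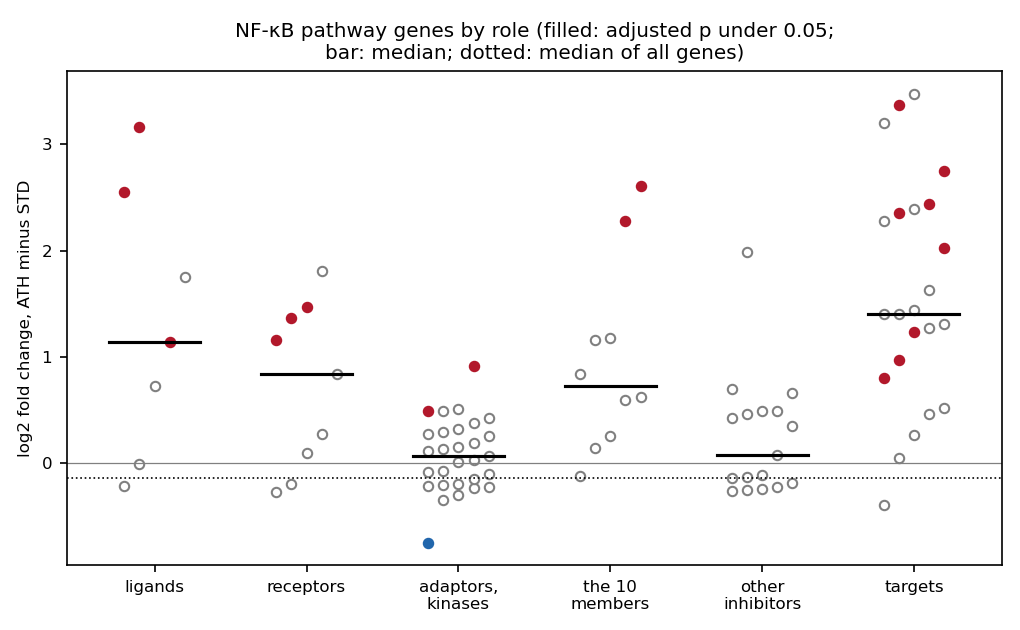
Log2 fold change (ATH minus STD) of each detected gene of the NF-κB pathway, by role, by its brightest probe. Filled points have an adjusted p under 0.05 (red higher, blue lower), bars are list medians and the dotted line is the median of all genes at -0.14. Ligands (median 1.14) and targets (1.40) lie above the adaptors and kinases (0.07) and the other inhibitors (0.08); after normexp these medians were 0.46, 0.86, 0.05 and -0.03.

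Of all genes tested, 3 had values most like those of *Tnfaip3* over the 8 arrays, by the root mean square difference after each gene was centered on its own mean. They were *Cd83* (0.21 log2 units), *Pmaip1* (0.25), which encodes the cell death protein NOXA, and *Ccl6* (0.25), a chemokine of myeloid cells. *Pmaip1* measured -2.69, -2.70, -2.73 and -3.28 on the STD arrays and -0.58, -1.13, -0.06 and 0.24 on the ATH arrays. As for *Tnfaip3*, array 2 was the lowest of the ATH arrays for all 3. *Cd83* is also in the list of targets.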

How the data were processed

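Cy3-labeled liver RNA of 8 mice was measured on Agilent 4x44K mouse arrays. The authors obtained spot intensity values with Agilent Feature Extraction 9.5 (per the labels), which subtracts background and detrends but does not scale between arrays. The authors also deposited a GeneSpring table of log2 values (31642 entries), which equals the log2 processed signal up to a constant per array and per probe for 100.0% of values, within 0.001. That table was used as an alternative. Its scaling and centering are not given in the sources used here, and its column medians ranged from -0.0396 to 0.164.

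The diet in the labels gave each sample's group. Spots with an outlier mark were left out, spots of a probe were averaged on the log2 scale, and the 75th percentile of each array's non-control probes was subtracted. Diet was tested with limma 3.58.1 in R 4.3.3 (two-sided lmFit and eBayes, with Benjamini-Hochberg adjustment over 31056 detected probes), at 1% as in the study's methods and at 5%. A gene's brightest probe over the 8 arrays stood for it. Permutation tests, summaries and plots used Python 3.11.15 with scipy 1.17.1, numpy 2.4.6, pandas 2.3.3 and matplotlib 3.10.9. The precision of each value is limited by the 4 arrays per diet.

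The members, gene lists and named genes were chosen with earlier results of these data known. All member probes are named. Of each other list, the genes called at 1% are named, or where there were none the 5 called at 5% with the lowest p, and for the member with the lowest p the 3 genes most like it. Some further genes, such as *Adgre1*, *Clec4f*, *Cyld* and *Tnip1*, are named as examples of their list, whether or not they passed. Of 41174 probes, 22951 were named by accession, 6659 by symbol and 3109 by synonym through RefSeq, and 8455 kept the file's name. The array design uses the mm7 build and the promoter table GRCm38.p6, and coordinates were not converted between them. Promoters of *Nfkb1* and *Relb* were not analysed here.

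Replicate numbers equal positions on the slides. Deviations from the mean of the diet correlated between same-numbered arrays at 0.0996, 0.229, 0.181 and 0.175 over 31056 probes, so 1 of the 4 was just under 0.1, and the replicate block is given as a block of slide position. In simulated data for this comparison (31056 probes, tested at 5%), limma recovered 47% of 100 probes with a log2 change of 1 and 88% of 100 with a change of 2, with 3 false among 138 calls. The simulation gave each probe the same SD on both diets. In the data the SDs could differ, as for *Tnfaip3* (0.20 on STD, 0.71 on ATH) and *Rel* (0.97 on STD, 0.28 on ATH). The simulated figures therefore need not hold for the members. Alternatives were other scalings (median, quantile, spike-in, none), normexp with an offset of 50, the deposited log2 values, no filter, detection on all 8 arrays, the methods' test with unequal variances, trended and robust limma, the mean of a gene's probes, the replicate block, and leaving out each of the arrays.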

Additional observations from a re-analysis of the deposited data

Results flagged for a closer look

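Among the 28 sets of 4 arrays tested (14 member probes on 2 diets), 2 held an array that stood apart from the other 3, and chance alone would give about 1 in 20. STD array 3 was high for *Nfkb2*, at -0.0032, where the other STD arrays lay between -0.57 and -0.48. STD array 4 was low for the *Nfkb1* probe A_52_P569539, at -1.8389, where the others lay between -1.34 and -1.27. These are scaled log2 signals.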

How the results depend on the processing

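At 5%, the 2 members called higher became 9 with no scaling, 4 with spike-in scaling, 6 with normexp, 1 with the replicate block (slide position; *Tnfaip3*) and 0 by the methods' test with unequal variances (adjusted p = 0.105 for *Tnfaip3* and 0.160 for *Relb*). At 1%, the 1 member became 0 with spike-in scaling, without the detection filter, by the methods' test and with the block. With spike-in scaling 0.217% of all genes were called higher at 1%, and with the block no gene passed 1% in either direction. The 8 pathway genes became 29 with no scaling, 15 with spike-in scaling, 13 with normexp, 1 without the filter, 1 by the methods' test and 4 with the block. The 8 targets became 14 with no scaling, 4 without the filter, 0 by the methods' test and 5 with the block. Leaving out each array in turn gave 1 to 6 members at 5% and 0 to 3 at 1%, 0 to 19 pathway genes and 0 to 15 targets, and each highest count was without ATH array 2. The lowest counts followed the loss of several of the other arrays, and the cause of these changes was not tested. *Rel*, at -0.12, ranged from -0.59 (without STD array 2) to 0.14 with 1 array left out, and reversed to 0.11 with quantile normalization, 0.33 with no scaling, 0.19 with spike-in scaling and 0.14 without STD array 3. No other member changed direction under the alternatives run. No difference between a pair of members changed direction under the alternatives run, and with the block, whose smallest possible p is 0.125, no pair could have passed 5%. Over all genes, 670 were called higher and 878 lower at 5%, compared to 4283 and 224 with no scaling, 1648 and 232 with spike-in scaling, 703 and 497 with quantile normalization and 945 and 2816 with normexp.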

Other observations

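Markers of other cells were measured on the same arrays. Of 12 T and B cell markers none passed 5% by limma (5 at an unadjusted p under 0.05) or by the methods' test (1 unadjusted), and the summed signal of the list, as log2, ranged from 0.977 to 1.36 on the STD arrays and from 0.808 to 2.53 on the ATH arrays. Of 6 neutrophil markers detected none passed 5% by limma (2 at an unadjusted p under 0.05) or by the methods' test (2 unadjusted), but *S100a8* and *S100a9* passed with the slide position as a block (adjusted p = 0.0274 and 0.0304; named after their values were seen). The sums of this list ranged from 0.604 to 1.82 on the STD arrays and from 1.64 to 3.90 on the ATH arrays. *Elane* was not detected, and *Ly6g* had no probe under its name. No share of all genes is given beside the unadjusted counts of the T and B cell and neutrophil lists, and no result is read from them. Among 8 stellate cell markers *Col3a1*, a fibrillar collagen, rose by 1.74 on the log2 scale by its brightest probe (adjusted p = 0.0327), while its other probes gave -1.14 (adjusted p = 0.128) and 0.39 (adjusted p = 0.464). *Lyve1*, a marker of sinusoidal and lymphatic endothelium, was the 1 of 8 endothelial markers that passed 5%. It rose by 1.21 (adjusted p = 0.0361) by its brightest probe, while its other probe gave 0.85 (adjusted p = 0.119). *Sox9*, a transcription factor of bile duct cells, was the 1 of 6 cholangiocyte markers that passed, with a rise of 1.04 (adjusted p = 0.0391), and of its other probes one gave 0.91 (adjusted p = 0.0477) and the other -0.06 (adjusted p = 0.833).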
